A study of Homo sapiens with 10 samples.

Results

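The genes described here are 33 members of the hypoxia-inducible factor (HIF) response that do not belong to the core glycolytic chain, listed by name for 786-O cells. A single probe set was annotated to each of 32 of them, and these 32 stand among 22505 genes measured in the series; no probe set carried the name CA9, so the expression of CA9 was not analysed here. 786-O is an established human clear-cell renal carcinoma line that lacks functional VHL, and all cells of the series share that defect. The groups were 786-O cells with ZHX2 hairpin 44, ZHX2 hairpin 45 or a scrambled hairpin (Scr) in one table of 6 arrays, and with p65 shRNA or control shRNA in another table of 4 arrays. Each group had 2 arrays. All cells had received a lentivirus and been selected with puromycin at 2 ug/ml, so each group is an infected population of 1 line. The sample titles number the p65 arrays as they number the control arrays, and do not say whether 1 or more shRNAs targeted p65. ZHX2 is a zinc-finger and homeobox transcription factor known as a substrate of the VHL ubiquitin ligase, and p65 is the NF-kB subunit encoded by RELA.

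HIF is a dimer of an oxygen-sensitive alpha subunit and the stable subunit ARNT. In normal oxygen, prolyl hydroxylases of the EGLN family mark the alpha subunit, VHL binds it and the proteasome destroys it. Without VHL the alpha subunit persists in any oxygen and the target genes are held on, and in 786-O cells the form that does this is HIF-2alpha, encoded by EPAS1. The targets outside glycolysis cover blood vessel growth, pH, lipid storage, mitophagy and collagen processing, all features for which clear-cell renal carcinoma is known.

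The targeted genes were measured first. ZHX2 had log2 signals of 9.35 and 9.38 on the hairpin 44 arrays and 8.93 and 9.02 on the hairpin 45 arrays, compared with 10.58 and 10.43 for the scrambled hairpin. RELA had log2 signals of 5.04 and 5.28 with the p65 hairpin, against 7.64 and 7.67 with control shRNA. The log2 difference was -1.14 for ZHX2 with hairpin 44 (limma adjusted p = 0.00527), -1.53 with hairpin 45 (limma adjusted p = 0.000925), and -2.50 for RELA, which did not reach the threshold (limma adjusted p = 0.0737, and 0.00134 with a variance trend). RELA was itself higher after ZHX2 knockdown, by 0.44 with both hairpins averaged (limma adjusted p = 0.0112), at 9.64 and 9.68 under hairpin 44 and 9.82 and 9.75 under hairpin 45, while scrambled cells had 9.34 and 9.23. Over all probe sets, the median signal of an array was 6.15 to 6.22 for the ZHX2 arrays and 1.87 to 1.89 for the p65 arrays, and no level is compared between these tables. All 8 renal tubular carcinoma markers examined (PAX8, PAX2, LHX1, KRT8, KRT18, VIM, CDH2 and CDH6) had group means above the median of the named genes in the ZHX2 table (6.91), and 7 of 8, all but KRT18, in the p65 table (2.85). Of 4 measured leukocyte markers, all 4 lay below that median in every group. Of 4 endothelial markers, 3 lay below it in each group of the ZHX2 table and 4 in each group of the p65 table. Of 5 fibroblast markers, 3 lay below it in scrambled cells, 4 with hairpin 44, 5 with hairpin 45 and 3 in both groups of the p65 table. The summed log2 signal of the 8 renal markers was 79.1 to 79.2 with hairpin 44 and 77.1 to 77.5 with hairpin 45, against 80.1 to 80.9 in scrambled cells, and its part in the results was not tested. With both hairpins averaged KRT18 rose and PAX8, PAX2, LHX1 and CDH6 fell. CDH6, a cadherin, had the largest change of these, at -1.33 with hairpin 44 and -2.51 with hairpin 45 (limma adjusted p = 0.00404 and 0.000184), while PAX8, PAX2 and LHX1 stood at -0.38, -0.36 and -0.57 with the hairpins averaged. Of the leukocyte and endothelial markers (4 measured in each list) limma called 0, and of 5 fibroblast markers LUM fell with the hairpins averaged, at -0.95. COL1A1 was called with hairpin 45 only, at -0.48 (limma adjusted p = 0.0396). In the p65 table CDH2 was called with the variance trend only, at -0.57 (limma adjusted p = 0.0182). The labels do not say whether the arrays of a group came from separate cultures, so the p-values reflect the spread of these arrays alone, and that spread may be technical. Changes in RNA per cell and in the share of cells that express a gene cannot be told apart in bulk RNA.

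A minority of the HIF-responsive genes were called after ZHX2 knockdown, and those went both ways. With both hairpins averaged, 4 of the 32 rose and 5 fell at a limma adjusted p under 0.05, with adjustment over all 22505 genes. The share called was 28.1%, beside 18.3% of all genes tested in this comparison. The higher calls made up 12.5% of the members, beside 11.9% of all genes, and the lower calls 15.6%, beside 6.41%. The genes that rose were ANGPTL4, INHBB, ADM and PDK1, and those that fell were ENPP3, IGFBP3, LOXL2, GBE1 and KDM4B. By an unadjusted p under 0.05 there were 7 above and 8 below scrambled, beside 19.1% and 13.1% of all genes. All 4 hairpin arrays lay above both scrambled arrays for 9 members (beside 21.9% of all genes) and below both for 9 (beside 16.4%). The median log2 change was 0.01 over the members and -0.00419 over all genes, and the median size of the change without sign was 0.14 over the members and 0.15 over all genes. The split between directions moved with the scaling: it was 5 higher and 3 lower after median centring of the arrays, and 2 higher and 7 lower after a further quantile normalization. ANGPTL4 and INHBB were among the higher calls, and ENPP3, IGFBP3 and LOXL2 among the lower calls, under both of these scalings.

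The bases before the start of 4 of these genes are shown because ENPP3, IGFBP3 and ANGPTL4 changed most and LOX, described below, changed in opposite directions with the 2 hairpins. HIF binds DNA at a short core, searched here as ACGTG and as GCGTG on both strands; capitals mark each match, which reads CACGT or CACGC where it lies on the other strand. The sequences are those of RefSeq (GRCh38.p14), from 250 bases before the start up to the start, 5′ to 3′ along the gene's strand. They lie at chr6:131637052-131637301 on the plus strand for ENPP3, chr7:45921273-45921522 on the minus strand for IGFBP3, chr19:8363905-8364154 on the plus strand for ANGPTL4, and chr5:122078260-122078509 on the minus strand for LOX.
ENPP3: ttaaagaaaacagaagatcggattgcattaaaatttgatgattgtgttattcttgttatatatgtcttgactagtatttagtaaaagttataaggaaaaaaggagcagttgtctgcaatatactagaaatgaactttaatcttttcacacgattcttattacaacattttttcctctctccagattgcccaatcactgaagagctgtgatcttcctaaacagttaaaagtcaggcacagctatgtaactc
IGFBP3: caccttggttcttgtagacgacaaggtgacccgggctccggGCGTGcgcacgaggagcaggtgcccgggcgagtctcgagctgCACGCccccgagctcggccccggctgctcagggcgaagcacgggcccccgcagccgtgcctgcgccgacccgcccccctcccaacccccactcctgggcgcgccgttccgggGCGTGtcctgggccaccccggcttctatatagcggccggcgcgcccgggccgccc
ANGPTL4: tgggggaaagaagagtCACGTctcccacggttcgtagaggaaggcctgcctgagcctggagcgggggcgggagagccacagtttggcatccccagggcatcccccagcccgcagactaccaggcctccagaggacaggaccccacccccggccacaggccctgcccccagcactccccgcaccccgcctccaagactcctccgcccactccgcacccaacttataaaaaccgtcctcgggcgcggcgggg
LOX: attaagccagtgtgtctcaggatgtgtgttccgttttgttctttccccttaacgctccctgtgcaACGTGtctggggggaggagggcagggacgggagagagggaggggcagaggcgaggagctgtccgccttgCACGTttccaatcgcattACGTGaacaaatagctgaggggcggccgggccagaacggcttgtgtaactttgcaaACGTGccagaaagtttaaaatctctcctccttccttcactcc
ENPP3 held 0 matches, IGFBP3 held 3, all of the GCGTG form, ANGPTL4 held 1 of the ACGTG form and LOX held 4 of the ACGTG form. Other annotated starts of LOX, of which the table has 2, each held 1 match of each form. Their windows overlap, and the matches are the same sites in both.

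The promoter table held 24 of the 33 members, with 30 starts in all, CA9 included, and 9 had no entry (VEGFA, NDRG1, BNIP3L, LOXL2, RAB20, HILPDA, SCARB1, STC1 and ANKZF1). ACGTG lay in 15 of the 30 member promoters (50%) and in 18.5% of all 35114 promoters of that length. Either form of the core lay in 23 of 30 (76.7%), against 43.2% of all promoters. By the call with both ZHX2 hairpins averaged, either form lay in 3 of 5 promoters of genes that rose and 3 of 4 of genes that fell. Either form lay in 16 of 20 promoters of genes not called, LOX among them. CA9, whose promoter held 1 ACGTG, is in none of these groups. The E-box CACGTG, which contains ACGTG on both strands, lay in 6 of the 30 (20.0%) and in 6.35% of all promoters. The kappaB consensus, the site bound by NF-kB, lay in 1 of the 30, that of INHBB (3.33%), and in 9.96% of all promoters. A match is only a run of letters, and its absence from this window says nothing of binding elsewhere.

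Among the secreted factors 3 of 6 rose and 1 fell, beside 11.9% and 6.41% of all genes. The same shares stand beside the counts of the other groups by role. Each group held 4 to 6 measured genes, and no group was tested as a set. ANGPTL4, a secreted inhibitor of lipoprotein lipase, had log2 signals of 8.72 and 8.54 on the hairpin 44 arrays and 9.10 and 9.24 on the hairpin 45 arrays, compared with 7.72 and 7.93 for the scrambled hairpin. All 4 hairpin arrays were above both scrambled arrays, and the hairpin 45 arrays were the highest. The mean log2 change was 1.08, or 2.11-fold (SE 0.0979, limma adjusted p = 0.00279). INHBB, a subunit of activins and inhibins of the TGF-beta family, had log2 signals of 8.78 and 8.78 on the hairpin 44 arrays and 8.80 and 9.03 on the hairpin 45 arrays, compared with 8.11 and 8.07 for the scrambled hairpin. It rose by 0.76 (log2), with SE 0.084 and a limma adjusted p of 0.00448, and again no hairpin array overlapped the scrambled pair. ADM, the precursor of the vasodilator peptide adrenomedullin, had log2 signals of 9.05 and 9.09 on the hairpin 44 arrays and 9.14 and 9.27 on the hairpin 45 arrays, compared with 8.90 and 8.69 for the scrambled hairpin. Its change of 0.34 passed narrowly (SE 0.0862, limma adjusted p = 0.0445).

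IGFBP3, a carrier of insulin-like growth factors, was the secreted factor that fell. Its log2 signal was 9.84 and 9.84 on the hairpin 44 arrays and 9.71 and 9.64 on the hairpin 45 arrays, compared with 10.64 and 10.61 for the scrambled hairpin. The replicate pairs lay within 0.1 of each other, and the mean change was -0.87 (SE 0.0628, limma adjusted p = 0.00186). VEGFA, the principal angiogenic growth factor of the HIF response, had log2 signals of 10.74 and 10.74 on the hairpin 44 arrays and 10.64 and 10.59 on the hairpin 45 arrays, compared with 10.68 and 10.68 for the scrambled hairpin. It missed the threshold (limma adjusted p = 0.982), and the 95% interval of its mean change ran from -0.15 to 0.15. STC1, a secreted glycoprotein of calcium and phosphate balance, had an interval from -0.31 to 0.16.

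**Figure D1:**
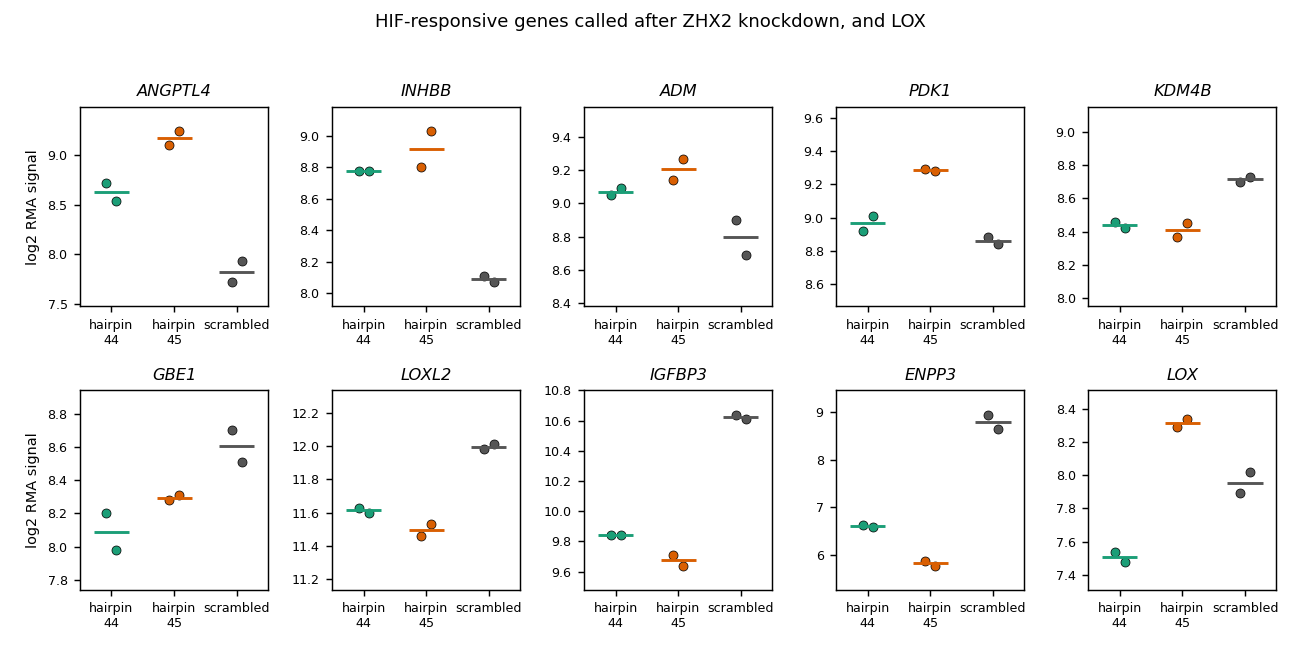
Log2 RMA signal of the 9 HIF-responsive genes called with both ZHX2 hairpins averaged, and of LOX; points are arrays, lines are means of 2 arrays, and each panel has its own axis range. For 9 of the panels both hairpins lie on one side of scrambled cells, while LOX lies below with hairpin 44 and above with hairpin 45.

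ENPP3 had the largest change among the members. It encodes a cell-surface ectonucleotidase that hydrolyses extracellular nucleotides. Its log2 signal was 6.62 and 6.58 on the hairpin 44 arrays and 5.87 and 5.78 on the hairpin 45 arrays, compared with 8.94 and 8.64 for the scrambled hairpin. The mean change was -2.58 (SE 0.0991, limma adjusted p = 0.000629). The hairpin 45 signals lay below the median of all probe sets, and the hairpin 44 signals below that of the named genes (6.91). No detection measure was used here. The size of this fall, and its difference between the hairpins, rest on signals not shown to be above background. The other 3 measured surface proteins did not pass. CXCR4, the receptor of the chemokine CXCL12, differed by 0.41 (limma adjusted p = 0.0668), and SCARB1, a receptor of high-density lipoprotein, by 0.23 (limma adjusted p = 0.076), with all 4 hairpin arrays above scrambled for both. CA12, a membrane carbonic anhydrase that acidifies the surroundings of the cell, differed by -0.03 (95% interval from -0.17 to 0.12).

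Of the oxygen sensor, chromatin and transcription genes, 1 of 5 fell. KDM4B, a histone lysine demethylase, had log2 signals of 8.46 and 8.42 on the hairpin 44 arrays and 8.37 and 8.45 on the hairpin 45 arrays, compared with 8.70 and 8.73 for the scrambled hairpin, a mean change of -0.29 (SE 0.0642, limma adjusted p = 0.0294). The repressor BHLHE40 at -0.21, the ankyrin repeat gene ANKRD37 at -0.26 and the demethylase KDM3A at -0.13 also had all 4 hairpin arrays below scrambled and were not called. EGLN3, the prolyl hydroxylase through which HIF limits itself, differed by 0.07 (limma adjusted p = 0.528).

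In the mitochondrial group PDK1 alone of 4 rose. It encodes the kinase that switches off pyruvate dehydrogenase and so keeps pyruvate out of the citric acid cycle. Its log2 signal was 8.92 and 9.01 on the hairpin 44 arrays and 9.29 and 9.28 on the hairpin 45 arrays, compared with 8.88 and 8.84 for the scrambled hairpin, and the mean change was 0.26 (SE 0.0645, limma adjusted p = 0.0408). The mitophagy receptor BNIP3, whose probe set one annotation also assigns to the pseudogene BNIP3P1, differed by 0.17 (limma adjusted p = 0.127). Its relative BNIP3L differed by 0.01 and the mitochondrial protein FAM162A by 0.04. The lipid, glycogen and sugar-phosphate group held 1 call in 4. GBE1, the glycogen branching enzyme, had log2 signals of 8.20 and 7.98 on the hairpin 44 arrays and 8.28 and 8.31 on the hairpin 45 arrays, compared with 8.70 and 8.51 for the scrambled hairpin, a mean change of -0.41 (SE 0.0947, limma adjusted p = 0.0333). The lipid droplet genes PLIN2 at 0.16 and HILPDA at -0.04 did not pass, nor did PFKFB4, a regulator of glycolytic flux, at -0.03.

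Of the collagen and matrix enzymes 1 of 4 fell. LOXL2, which cross-links collagen, had log2 signals of 11.63 and 11.60 on the hairpin 44 arrays and 11.46 and 11.53 on the hairpin 45 arrays, compared with 11.98 and 12.01 for the scrambled hairpin. The mean change was -0.44 (SE 0.0631, limma adjusted p = 0.0088). The collagen prolyl hydroxylase subunits P4HA1 and P4HA2 differed by 0.10 and 0.00. The remaining 5 genes gave 0 calls by limma, and only NDRG1, a stress-responsive gene, had an unadjusted p under 0.05 (-0.20, adjusted p = 0.102). TMEM45A at 0.12, the small GTPase RAB20 at 0.04, PPFIA4 at 0.03 and ANKZF1, of ribosome quality control, at 0.08 were the others.

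The 9 calls were not equally firm. ENPP3, IGFBP3, ANGPTL4, INHBB and LOXL2 were called with any 1 of the 6 arrays left out, at adjusted p of at most 0.0155, 0.0207, 0.0215, 0.0369 and 0.047. KDM4B and PDK1 lost their calls whichever array was left out, at adjusted p from 0.0663 to 0.105 and from 0.0817 to 0.131. ADM was called in 1 such fit, without scrambled replicate 1 (adjusted p = 0.0419), and GBE1 in 1, without hairpin 44 replicate 1 (adjusted p = 0.0455). In the other fits ADM reached an adjusted p of up to 0.171 and GBE1 of up to 0.125. Fits with 1 array left out called fewer members and also fewer of all genes. When limma's moderation followed the trend of variance with signal, 14 members were called, 7 higher and 7 lower, beside 26.2% of all genes (17.3% higher and 8.91% lower). CXCR4, SCARB1 and BNIP3 were then added above scrambled, and BHLHE40 and NDRG1 below it.

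The hairpins were then compared one at a time with the same scrambled arrays, which both comparisons share. Hairpin 44 gave 7 calls, 2 higher and 5 lower (21.9% of members, beside 7.64% of all genes, 4.8% higher and 2.83% lower). Hairpin 45, with the lower ZHX2 signal, gave 9 calls, 5 higher and 4 lower (28.1%, beside 20.1% of all genes, 13% higher and 7.11% lower). ANGPTL4, INHBB, IGFBP3, ENPP3 and LOXL2 were called in the same direction with both. ENPP3 changed by -2.19 with hairpin 44 and by -2.97 with hairpin 45, ANGPTL4 by 0.81 and 1.35, and IGFBP3 by -0.79 and -0.95. GBE1 passed with hairpin 44 (-0.52, limma adjusted p = 0.047) and had -0.31 with hairpin 45 (limma adjusted p = 0.106). ADM, KDM4B and PDK1 passed with hairpin 45, at 0.41, -0.31 and 0.42, and had 0.28, -0.28 and 0.10 with hairpin 44. The hairpin 44 count fell with any 1 array left out: limma called 0 members without either hairpin 44 array (beside 3 and 4 genes of 22505), 1 without scrambled replicate 2, 2 without scrambled replicate 1 and 4 without either hairpin 45 array. Without a hairpin 44 array the changes stayed close in size, at -2.21 and -2.17 for ENPP3 (adjusted p = 0.056 and 0.0556) and at 0.72 and 0.90 for ANGPTL4 (adjusted p = 0.11 and 0.0898). With any 1 array left out, the hairpin 45 changes stayed between -3.12 and -2.82 for ENPP3 and between 1.25 and 1.45 for ANGPTL4. For each hairpin, such fits also called fewer of all genes. With the variance trend the counts were 13 for hairpin 44 and 16 for hairpin 45, beside 17.6% and 27.9% of all genes.

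**Figure D2:**
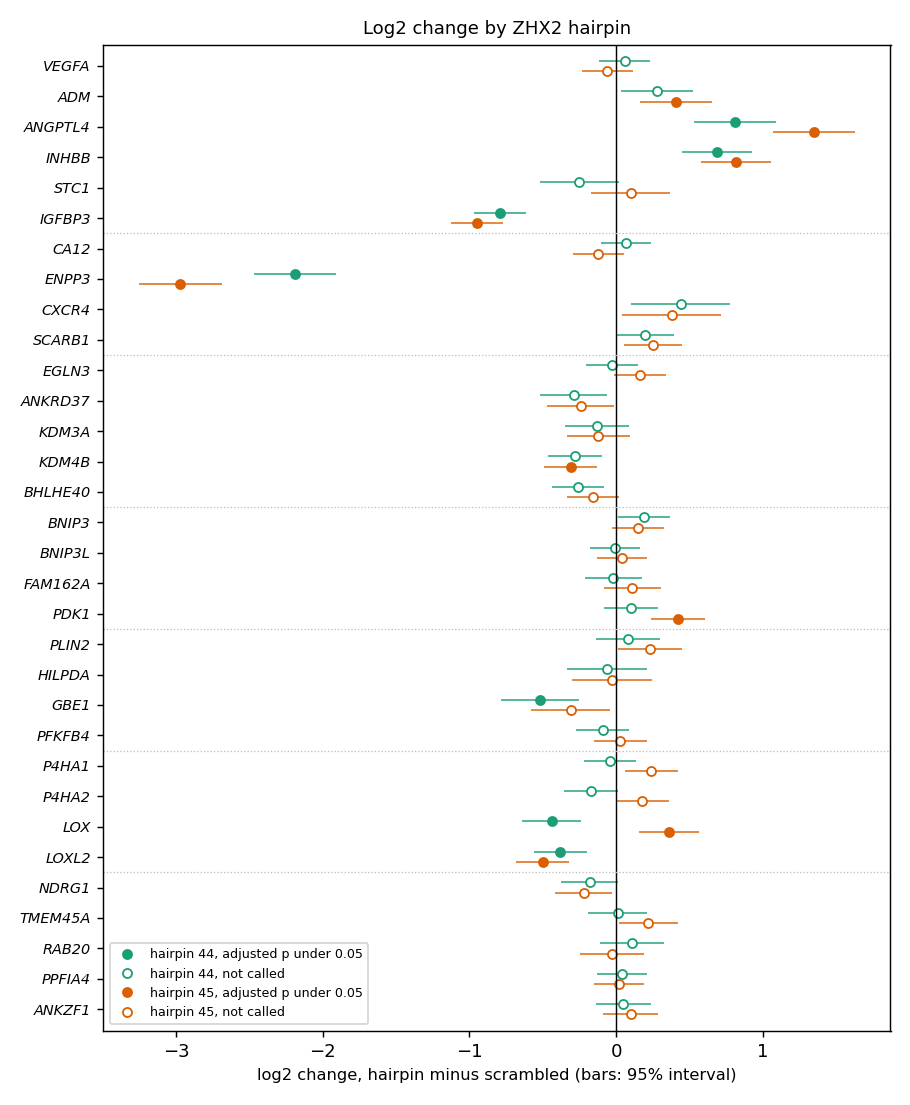
Log2 change of each of the 32 measured genes with hairpin 44 and hairpin 45 against the same 2 scrambled arrays; bars are 95% intervals of limma, filled points are called and open points are not, and dotted lines separate the groups of genes. ENPP3 lies at -2.19 and -2.97, and the pair of LOX points lies on opposite sides of 0.

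LOX, the founding lysyl oxidase, which cross-links collagen and elastin, was called in opposite directions. Its log2 signal was 8.29 and 8.34 with hairpin 45 and 7.54 and 7.48 with hairpin 44, while scrambled cells had 7.89 and 8.02. The scrambled arrays lay between the hairpins, with no overlap. Against scrambled cells, hairpin 45 stood at 0.36 (limma adjusted p = 0.0304) and hairpin 44 at -0.44 (limma adjusted p = 0.0343), each with an SE of 0.0825. The hairpin 44 call was lost with any 1 array left out (adjusted p from 0.0543 to 0.176), and the hairpin 45 call in all but the fit without scrambled replicate 2 (adjusted p = 0.0461, and up to 0.153 in the others). The difference between the hairpins was 0.81 (SE 0.0825, limma adjusted p = 0.0321), the single member call of that comparison (3.12% of members, beside 0.395% of all genes, 0.129% higher and 0.267% lower). This difference kept its size when any 1 array was left out, from 0.77 to 0.84, and lost its call each time, at adjusted p from 0.078 to 0.261. By an unadjusted p under 0.05, 8 members were higher and 2 lower with hairpin 45 than with hairpin 44, beside 8.36% and 6.75% of all genes. Both hairpin 45 arrays lay above both hairpin 44 arrays for 18 members (beside 26.9% of all genes) and below them for 6 (beside 23.5%). The collagen prolyl hydroxylase subunits lay above with hairpin 45, P4HA2 by 0.35 (limma adjusted p = 0.143) and P4HA1 by 0.28 (limma adjusted p = 0.192), and ENPP3 lay below (-0.78, limma adjusted p = 0.0805). With the variance trend 7 members differed between the hairpins, ANGPTL4, PDK1, P4HA1, P4HA2 and LOX higher and CA12 and ENPP3 lower with hairpin 45, beside 6.55% of all genes (4.11% higher and 2.44% lower).

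The p65 comparison asked whether the same genes depend on the NF-kB subunit. Limma called 0 of the 32 members, as it called 0 of 22505 genes (0%), with 2 residual degrees of freedom in the fit. On data simulated with the spread of this table the same test called 0 of 100 genes changed by 2 on the log2 scale, so a count of 0 says little about the members. By an unadjusted p under 0.05 there were 6 members below control and 0 above, beside 7.95% and 6.39% of all genes. The 95% intervals of single members, before any adjustment, reached from 0.415 to 0.952 either side of the change. In 13 members both p65 hairpin arrays lay below both control arrays (40.6%, beside 22.7% of all genes), and in 4 they lay above (12.5%, beside 23.4%).

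STC1 and VEGFA had the largest differences. STC1 had log2 signals of 4.40 and 4.42 with the p65 hairpin, against 5.52 and 5.92 with control shRNA, a difference of -1.31 (SE 0.203, limma adjusted p = 0.101). VEGFA had log2 signals of 6.0 and 5.80 with the p65 hairpin, against 6.84 and 7.09 with control shRNA, a difference of -1.06 (SE 0.19, limma adjusted p = 0.12). For both, all p65 hairpin arrays lay below all control arrays. With the variance trend both passed, at adjusted p of 0.0147 and 0.0127, as the 2 members called of 32 (6.25%, beside 3.85% of all genes, 1.36% higher and 2.49% lower). With 1 array left out in the fit without the trend, neither was called, and their differences stayed between -1.51 and -1.11 and between -1.19 and -0.94.

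**Figure D3:**
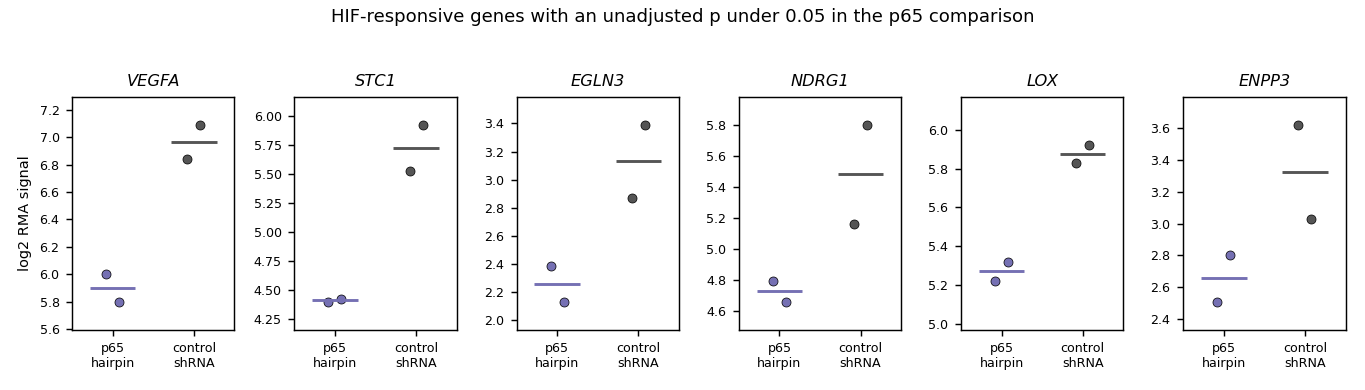
Log2 RMA signal of the 6 HIF-responsive genes with an unadjusted p under 0.05 in the p65 comparison; points are arrays, lines are means of 2 arrays, and each panel has its own axis range. Both p65 hairpin arrays lie below both control arrays in all 6 panels.

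The other 4 members of that kind were EGLN3, NDRG1, ENPP3 and LOX. EGLN3 had log2 signals of 2.38 and 2.13 with the p65 hairpin, against 2.87 and 3.39 with control shRNA, a difference of -0.87 (limma adjusted p = 0.217). NDRG1 had 4.79 and 4.66 with the p65 hairpin, against 5.16 and 5.80 with control shRNA, a difference of -0.75 (limma adjusted p = 0.292). LOX had 5.22 and 5.32 with the p65 hairpin, against 5.83 and 5.92 with control shRNA, a difference of -0.61 (limma adjusted p = 0.223). ENPP3 had 2.51 and 2.80 with the p65 hairpin, against 3.62 and 3.03 with control shRNA, a difference of -0.67 (limma adjusted p = 0.336). The p65 hairpin signals of EGLN3 and ENPP3 lay below the median of the named genes (2.85) and were not shown to be above background. Of the ZHX2-responsive members, ANGPTL4 differed by -0.49 with overlapping arrays, IGFBP3 by 0.11, INHBB by 0.00, KDM4B by 0.11 and PDK1 by -0.04. GBE1 at -0.58, ADM at -0.34 and LOXL2 at -0.29 had both p65 hairpin arrays below both control arrays and were not called. The highest difference was in RAB20, at 0.51 (limma adjusted p = 0.37).

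**Figure D4:**
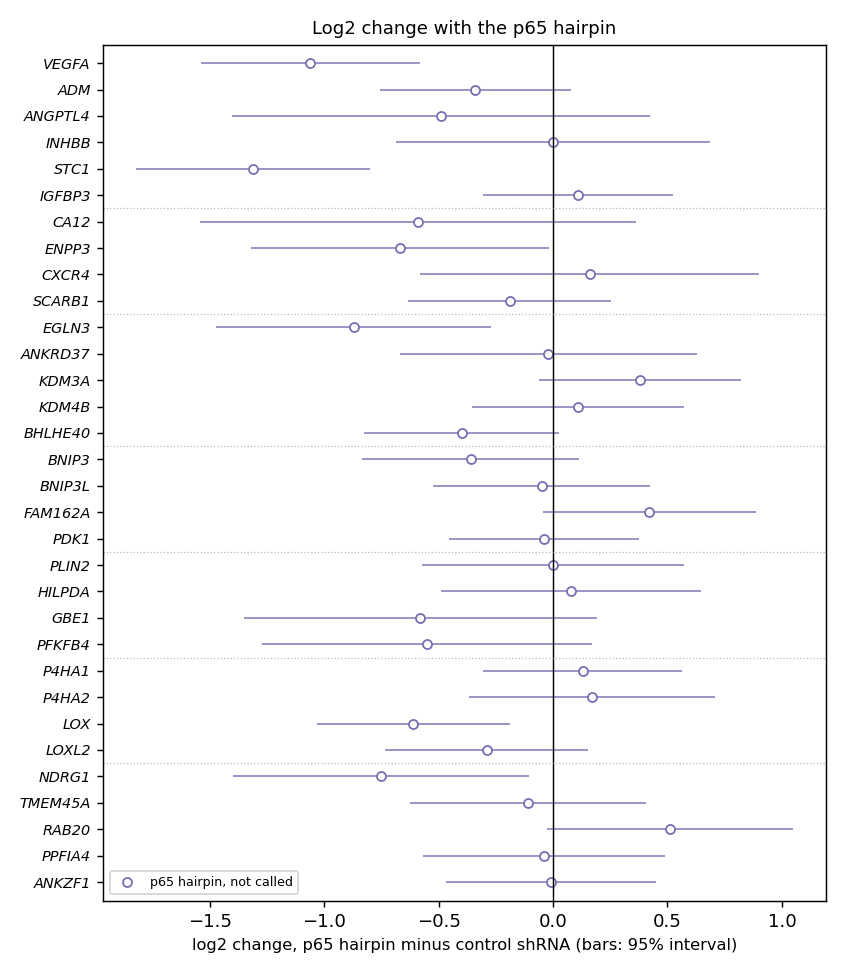
Log2 change of each of the 32 measured genes with the p65 hairpin against control shRNA; points are limma estimates over 2 arrays a side, bars are 95% intervals, and no gene was called. STC1 and VEGFA lie furthest below 0, at -1.31 and -1.06.

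The changes in the ZHX2 and p65 tables, which share no arrays, had the same sign in 18 of 32 members (56.2%), against 48.8% of all genes. Among the 9 members called after ZHX2 knockdown they had the same sign in 4 (44.4%), against 46.1% of all 4113 genes called there. VEGFA and STC1 had ZHX2 intervals that held 0 and p65 differences below it; whether the effects differ between the knockdowns was not tested.

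The rest of the pathway was read from lists of named genes. Of 11 measured HIF subunits and partners of VHL, 1 rose and 2 fell with both ZHX2 hairpins averaged, with a median of 0.07. The shares of all genes were 11.9% and 6.41%. CUL2, the scaffold of the VHL ligase, stood at 0.31 (limma adjusted p = 0.0212), HIF1A at -0.28 (limma adjusted p = 0.0339) and ARNT, the partner of both alpha subunits, at -0.25 (limma adjusted p = 0.0495). ELOB, which joins VHL to the ligase, had 0.23 (limma adjusted p = 0.0601). Hairpin 44 alone gave 0 calls in this list, beside 7.64% of all genes. Hairpin 45 gave 1 higher and 2 lower, beside 13% and 7.11%. EPAS1 had log2 signals of 10.49 and 10.55 on the hairpin 44 arrays and 10.67 and 10.61 on the hairpin 45 arrays, compared with 10.60 and 10.55 for the scrambled hairpin. Its hairpin 44 arrays overlapped scrambled, both hairpin 45 arrays lay above, and it was not called. In the p65 table EPAS1 had 7.45 and 7.79 with the p65 hairpin, against 8.23 and 8.71 with control shRNA. That difference was -0.85 (SE 0.241, limma adjusted p = 0.227, and 0.0449 with the variance trend).

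Among 26 measured HIF-responsive genes of a further list, 6 rose and 4 fell with both ZHX2 hairpins averaged (median 0.03), again beside 11.9% and 6.41% of all genes. Hairpin 44 alone gave 5 higher and 2 lower, beside 4.8% and 2.83%, and hairpin 45 gave 6 and 4, beside 13% and 7.11%. EDN1 fell by the average (-0.66, limma adjusted p = 0.00833) but was called with hairpin 45 only. Its log2 signal was 7.98 and 7.70 with hairpin 45 and 9.08 and 9.10 with hairpin 44, while scrambled cells had 9.15 and 9.10. The hairpins differed by -1.25 (limma adjusted p = 0.0208). The ubiquitin ligase adaptor WSB1 stood at -0.82 (limma adjusted p = 0.00209), the glucose transporter SLC2A3 at 0.77 (limma adjusted p = 0.00426), the receptor kinase AXL at 0.57 (limma adjusted p = 0.00538) and CCND1, which encodes cyclin D, at 0.49 (limma adjusted p = 0.00609). The scrambled signals of SLC2A3, 6.08 and 6.15, lay below the median of all probe sets and were not shown to be above background. Of 17 measured glycolytic HIF-responsive genes 7 rose and 0 fell by limma with the hairpins averaged (median 0.22), beside 11.9% and 6.41% of all genes. Under the variance trend 9 were higher and 1 lower, beside 17.3% and 8.91% of all genes. HK2 at 0.53, PGK1 at 0.47, GPI at 0.41 and ENO1 at 0.32 had the smallest p-values. Hairpin 44 alone gave 1 higher call, HK2, and hairpin 45 gave 6, beside 4.8% and 13% of all genes. With the p65 hairpin, limma called 0 genes of these 3 lists; with the variance trend it called HMOX1, which degrades heme, at 1.23 (adjusted p = 0.0154) and EPAS1.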

How the data were processed

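Total RNA from 10 samples of 786-O cells was measured on Affymetrix arrays, in 5 groups of 2 taken from the sample titles. The authors deposited log2 signals made with RMA (background correction, normalization and summary per probe set), per the submitters' processing notes, with the log2 scale read from the values. The sources used here do not give software, annotation or build. Each deposited table held 53617 probe sets, of which 24603 were named through both platform annotations and the RefSeq gene table (22505 genes). 1135 genes had over 1 probe set, and the one with the highest mean signal was used. A probe set with 1 gene in one annotation and the same gene plus only pseudogenes in the other took that gene. Low signals were kept.

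Each table was fitted separately in R 4.3.3 with limma 3.58.1 (group means, empirical Bayes without a trend, 3 and 2 residual degrees of freedom), with Benjamini-Hochberg adjustment over all genes and calls at an adjusted p under 0.05. Standard errors and intervals are limma's moderated ones. The number of arrays limits the precision. On data simulated with the spread of the ZHX2 table over 22505 genes, 83 of 100 changes of 1 and 99 of 100 changes of 2 (log2) were called; with that of the p65 table, 0 of 100 and 0 of 100, and with the variance trend 1 and 33. All members were accounted for, with values by array for those called. Of the further HIF lists, the 4 smallest p-values after ZHX2 knockdown were named. EPAS1, EDN1 and the calls under the trend in the p65 table were named as well, and of the marker lists the calls of the main fit. Members and lists were chosen with earlier results of these data known. Promoters were those of RefSeq (GRCh38.p14). Alternatives were quantile normalization, median centring, a variance trend, robust moderation, array weights, a filter at the 40th percentile of signal, the mean of probe sets, a block for replicate number, omission of each array in turn, and fits restricted to the groups compared.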

Additional observations from a re-analysis of the deposited data

Results flagged for a closer look

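In the main fit LOX was the only member whose effect differed between the hairpins by the test of the difference itself. With the variance trend there were 7, LOX among them. LOX was 0.81 higher on the log2 scale with hairpin 45 than with hairpin 44 (SE 0.0825, limma adjusted p = 0.0321). Its signals were 8.29 and 8.34 against 7.54 and 7.48. The call was lost with the replicate number as a block (limma adjusted p = 0.101). It was also lost in the fit of only these groups (limma adjusted p = 0.078) and with any 1 array left out. Hairpin 45 lay above the scrambled arrays and hairpin 44 below them. ZHX2 itself differed by -0.39 between the hairpins (limma adjusted p = 0.153, and 0.00512 with the variance trend). Its part in the LOX difference was not tested.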

How the results depend on the processing

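The number of members called was 9 with both ZHX2 hairpins averaged, 7 with hairpin 44, 9 with hairpin 45, 1 between the hairpins and 0 with the p65 hairpin. With the variance trend these became 14, 13, 16, 7 and 2, and with the filter on low signal 13, 9, 11, 2 and 0. In the ZHX2 table that filter left 16486 genes, of which 5285 were called with both hairpins averaged. Array weights gave 5 with both hairpins averaged and 2 between the hairpins. Fits of only the groups compared gave 4 with hairpin 44, 6 with hairpin 45 and 0 between the hairpins; they are the main fit for the other 2 comparisons, where that alternative gave no separate value. With the replicate number as a block the counts were 6, 4, 6, 0 and 0; deviations of same-numbered arrays correlated between -0.0267 and 0.0542, so the numbers were not taken to pair the arrays. Leaving out 1 array gave 5 to 6 members with both hairpins averaged, 0 to 4 with hairpin 44, 4 to 7 with hairpin 45, 0 between the hairpins and 0 with the p65 hairpin. Of all calls with both hairpins averaged, 64.9% were higher, 73% after median centring and 53.2% after quantile normalization; of the member calls, 44.4%, 62.5% and 22.2%. With hairpin 44 the share of all calls was 62.9%, and 51.2% after quantile normalization, and with hairpin 45 it was 64.7%, and 53% after it. With hairpin 45 the member share was 55.6%, and 27.3% after quantile normalization; with hairpin 44 it was 28.6%, and 40% after median centring. No member call changed its sign under any alternative run. Of the values of called members, and of VEGFA and STC1 in the p65 table, with an array left out, 84 kept their side of the threshold and 80 lost their call, and under the other alternatives 206 kept it, 33 lost it and 2 gained one; the cause was not tested, beyond the fewer arrays in the fits that leave one out. The p65 table is limited by 4 arrays and by a replicate difference with an SD of 0.4 to 0.427 across genes, against 0.197 to 0.238 in the ZHX2 table.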
